A study of Mus musculus with 24 samples.

Results

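Single mouse embryos collected 6 h after intracytoplasmic sperm injection (ICSI) were compared with single metaphase II (MII) oocytes, the egg at 0 h. The comparison rests on 3 embryos (a, b and d) and 3 oocytes (a, c and d), chosen by their sample titles from 24 single-cell arrays of 7 times. The 6 h embryos came from B6D2F1 oocytes injected with B6D2F1 sperm from males 8 to 12 weeks old. The MII oocytes were B6D2F1 cells titled as 0 h, and oocytes were held in kalium simplex optimized medium until use. Both groups share this strain, a hybrid, and the sources used here do not give the ages of the females. Each array holds 1 cell, and no label ties a cell to an animal, so that p-values measure only the spread between these cells. The stage label of every sample reads as an embryo, oocytes included, so that the titles set the groups. All 12 oocyte marker genes measured, zona pellucida genes and oocyte growth factors among them, were above the array background in both groups.

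An MII oocyte is arrested in its second meiotic division by the Mos kinase pathway, which keeps cyclin B and its partner kinase active. Sperm entry sets off calcium waves, after which the anaphase-promoting complex destroys cyclin, the second polar body leaves and the sperm and egg genomes form pronuclei. The egg carries a store of maternal messages that are held with short poly(A) tails, lengthened for translation or removed. The embryo's own genome is only weakly transcribed at this stage in the mouse. The comparison at 6 h asks what this message store looks like after meiosis has ended and around the time when pronuclei are present.

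Values are log2 intensities of 1 probe per gene for 19532 genes, recovered from the deposited scores. The most common log2 intensity was 6.795, taken as the background level, and near it a probe gives only a bound. A "call" is an adjusted p under 0.05 from the limma fit of all 24 arrays. Messages were captured on oligo-dT beads, so the amount of a message and the length of its poly(A) tail cannot be told apart in any value. The arrays were brought to 1 common distribution, so that a change of all messages together would not be seen and each change is relative to the others. The 6 h embryos varied more than the oocytes: the median SD of a gene was 0.469 in 6 h embryos and 0.281 in oocytes. Arrays of 6 h embryos correlated with each other at 0.854 to 0.916 across genes, and oocyte arrays at 0.932 to 0.938. A 6 h embryo array correlated with an oocyte array at 0.849 to 0.910. Embryo b had a coarser intensity scale, with a mean gap of 1.52 between neighbouring intensities, against 0.782 and 0.711 in embryos a and d and 0.583 to 0.637 in the oocytes. The number of cells limits the precision. In data simulated with 1 spread per gene for all groups, 38.8% of changes of 2 log2 units were called, so a gene without a call may still have changed by that much. The 6 h embryos and oocytes differed in spread, so the share may differ in these data.

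Of 19532 genes, 33 were called (0.169%), 24 of them lower in 6 h embryos than in oocytes (0.123%) and 9 higher (0.0461%). The lower genes had a median log2 change of -3.20 and the higher genes one of 1.30, while the median over all genes was 0.04. In every one of the 33 genes the 3 embryos lay apart from the 3 oocytes. Such separation was found in 3887 of all genes (19.9%), 2055 of them higher (10.5%) and 1832 lower (9.38%). At an unadjusted p under 0.05 there were 1715 genes (8.78%), 931 higher (4.77%) and 784 lower (4.01%). These counts varied with the mean level of a gene over 24 arrays. With genes split by that level into classes of 4883, from dimmest to brightest, 227, 105, 234 and 365 were higher. In the same order, 112, 181, 207 and 284 were lower. Shares of all genes, given beside the lists below, are thus a low baseline for lists of bright genes. Each call was lost under 3 to 12 of up to 15 alternatives, and leaving out embryo a left 1 gene called, a higher one. Without embryo b there were 9 higher and 7 lower calls and without embryo d 12 higher and 10 lower, so that the balance between the directions turned, while without oocytes a, c or d there were 11, 15 or 7. A fit of the 6 compared arrays alone called 0 genes, with 2267 at an unadjusted p under 0.05, weighting the arrays by their spread called 205, and leaving out the 6 arrays with a coarse scale, embryo b among them, called 3.

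**Figure D1:**
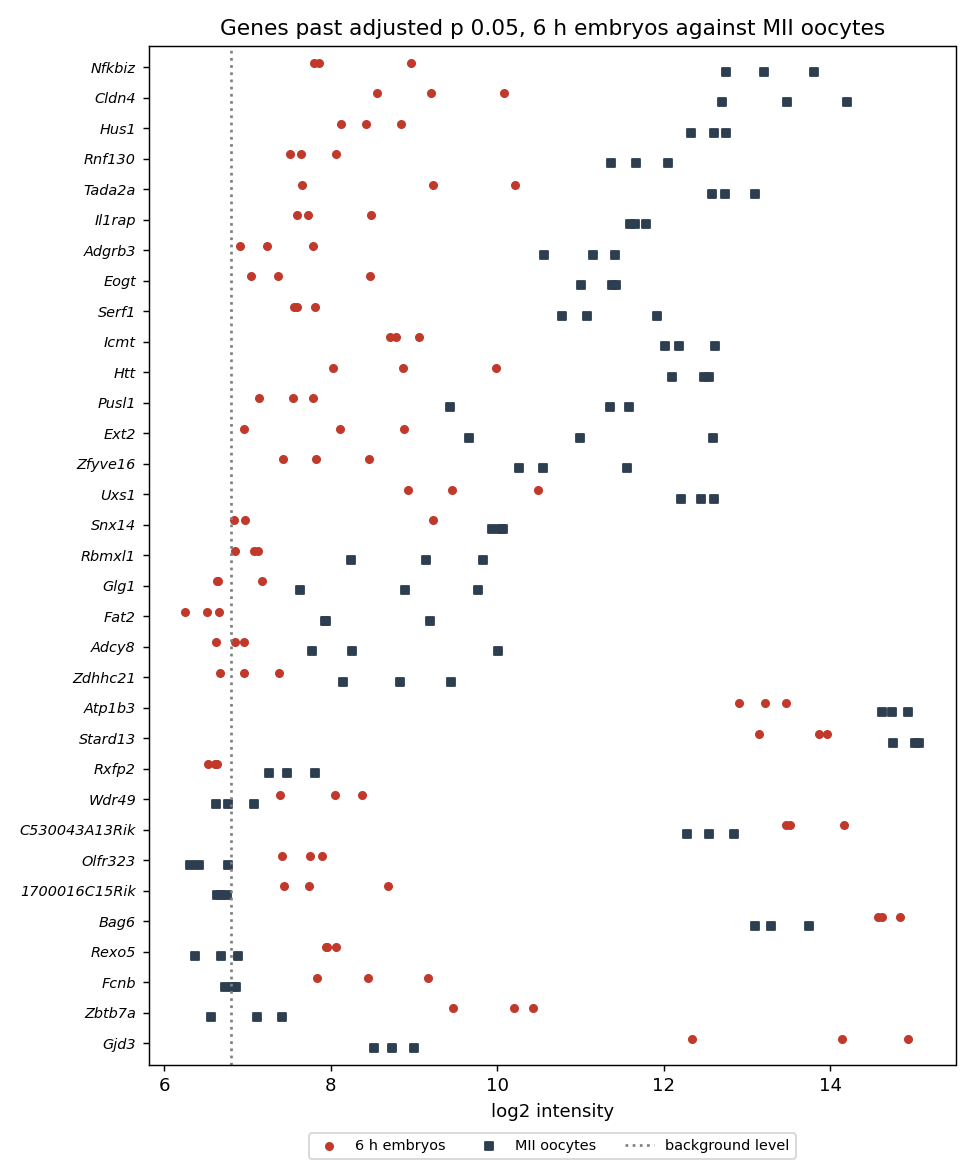
Log2 intensity (horizontal axis) of the 33 called genes (1 per line) in each of the 3 embryos at 6 h (circles, drawn just above) and the 3 MII oocytes (squares), with the background level as a dotted line. The embryos lie to the left of the oocytes in 24 genes and to the right in 9, and in 12 of the 24 the mean of the embryos is within 1 unit of the background.

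The largest change among the lower genes was in a signalling gene. Nfkbiz, a nuclear inhibitor-of-kappaB protein that tunes NF-kappaB target genes, had log2 intensities of 7.80, 7.85 and 8.96 in embryos a, b and d, against 12.74, 13.20 and 13.80 in oocytes a, c and d. The gap between the groups was wider than the range within either, and the log2 change was -5.05 (SE 0.78, adjusted p = 0.0116). Il1rap, the accessory chain of the interleukin-1 receptor, had 7.59, 8.49 and 7.72 in the embryos and 11.66, 11.59 and 11.79 in the oocytes. The oocytes were close together, and the change was -3.75 (SE 0.72, adjusted p = 0.0414). A dimmer second probe of either gene, near background, had a change of 0.08. The mean of all probes passed for Nfkbiz (change -2.48, limma adjusted p = 0.0178). It did not pass for Il1rap, which had 5 probes (change -0.82, limma adjusted p = 0.123).

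Other lower genes of the cell surface were receptors and enzymes that make second messengers. Adgrb3, an adhesion G-protein-coupled receptor, had 7.23, 6.91 and 7.78 in 6 h embryos and 11.41, 10.56 and 11.14 in oocytes. The embryos were near background, and the change was -3.73 (SE 0.77, adjusted p = 0.0497). Adcy8, a calcium-stimulated adenylyl cyclase, had 6.62, 6.95 and 6.85 in the embryos against 10.00, 8.26 and 7.78 in the oocytes. Its oocytes spread over more than 2 units, the embryos lay at the background, and the change was -1.87 (SE 0.35, adjusted p = 0.0314). Rxfp2, the receptor for insulin-like peptide 3, was dim in both groups, at 6.59 ± 0.06 in 6 h embryos and 7.51 ± 0.28 in oocytes (SD, n = 3 each), and had the smallest called change, -0.92.

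Among genes that act in the nucleus, Hus1, a subunit of the checkpoint clamp that loads at damaged DNA, had 8.84, 8.43 and 8.12 in 6 h embryos and 12.75, 12.61 and 12.32 in oocytes. The log2 change was -4.10 (SE 0.83, adjusted p = 0.0466). Both other bright probes of Hus1 were lower as well, by -4.37 and -2.26. Tada2a, an adaptor of histone acetyltransferase complexes, had 10.21, 7.65 and 9.23 in the embryos against 12.74, 12.57 and 13.10 in the oocytes. The embryos differed among themselves by more than 2 units, and the change was -3.77 (SE 0.75, adjusted p = 0.0464), beside -2.80 on another bright probe. Rbmxl1, a relative of the RNA-binding protein gene Rbmx, had 6.85, 7.08 and 7.12 in the embryos and 9.83, 9.15 and 8.24 in the oocytes. Its change was -2.06 (SE 0.31, adjusted p = 0.0116), and its call was lost least often, under 3 of 13 alternatives. Cross-hybridisation with Rbmx was not tested. Pusl1, named for its likeness to pseudouridine synthases, averaged 7.49 ± 0.33 in 6 h embryos and 10.79 ± 1.18 in oocytes (SD, n = 3 each), a change of -3.30, with -2.46 on another bright probe.

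A group of 7 lower genes encodes enzymes and residents of the endoplasmic reticulum, Golgi and cell membranes. They were grouped by role after their values were seen. Eogt, which adds N-acetylglucosamine to EGF repeats of secreted and membrane proteins, had 7.62 ± 0.75 in 6 h embryos and 11.27 ± 0.23 in oocytes (SD, n = 3 each), a log2 change of -3.65 (SE 0.72, adjusted p = 0.0464). Ext2, a subunit of the heparan sulphate polymerase, had 7.98 ± 0.97 in the embryos against 11.09 ± 1.47 in the oocytes (SD, n = 3 each). The oocytes ranged from 9.66 to 12.59 for Ext2, above the highest embryo at 8.87, and the change was -3.11 (SE 0.55, adjusted p = 0.0265). Uxs1, which makes the UDP-xylose that starts such sugar chains, had 9.46, 8.93 and 10.48 in the embryos and 12.61, 12.21 and 12.45 in the oocytes, a change of -2.80 (SE 0.56, adjusted p = 0.0464). Glg1, a sialoglycoprotein of the Golgi, averaged 6.82 ± 0.31 in 6 h embryos and 8.76 ± 1.07 in oocytes (SD, n = 3 each), with a change of -1.95, and -0.61 on another bright probe.

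The remaining genes of that group modify proteins. Icmt methylates the end of prenylated proteins such as Ras, and it had 8.71, 8.78 and 9.06 in 6 h embryos and 12.18, 12.02 and 12.61 in oocytes. Both groups were tight, and the log2 change was -3.42 (SE 0.62, adjusted p = 0.0277). Zdhhc21, a palmitoyltransferase, had 6.67, 6.95 and 7.37 in the embryos, at background, and 9.45, 8.83 and 8.14 in the oocytes, a change of -1.81 (SE 0.28, adjusted p = 0.0116). A dim second probe of Zdhhc21 had -0.06, and the mean of its probes did not pass (limma adjusted p = 0.1035). Rnf130, a membrane-bound ubiquitin ligase, had 8.06, 7.51 and 7.64 in the embryos against 12.05, 11.37 and 11.67 in the oocytes. Its change was -3.96 (SE 0.66, adjusted p = 0.0163), and another bright probe gave -4.00.

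Cldn4, Fat2, Atp1b3 and Stard13 were lower as well. Cldn4, a claudin of tight junctions, had 9.21, 10.08 and 8.56 in 6 h embryos and 13.48, 12.70 and 14.21 in oocytes, a log2 change of -4.18 (SE 0.75, adjusted p = 0.0265). Fat2, an atypical cadherin, had 6.25, 6.51 and 6.66 in the embryos, below the background level, and 7.93, 9.19 and 7.95 in the oocytes, a change of -1.88 (SE 0.32, adjusted p = 0.0163). Atp1b3, a beta subunit of the sodium-potassium pump, had 13.21, 12.90 and 13.47 in the embryos and 14.94, 14.62 and 14.74 in the oocytes. It lay far above background at 6 h, with a change of -1.57 (SE 0.30, adjusted p = 0.0373). Its 2 other bright probes did not share 1 direction, at -0.58 and 0.86. Stard13 had 13.86, 13.14 and 13.97 in the embryos against 15.06, 15.01 and 14.76 in the oocytes, a change of -1.29 (SE 0.23, adjusted p = 0.0265), while its other bright probe had 0.32. The mean of all probes did not pass for Atp1b3 (limma adjusted p = 0.870) or for Stard13 (limma adjusted p = 0.605).

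Snx14 and Zfyve16 encode sorting and endosome proteins. Snx14 had 6.83, 6.97 and 9.23 in 6 h embryos and 10.07, 10.04 and 9.94 in oocytes, so that embryo d lay nearer to the oocytes than to the other embryos. Zfyve16 averaged 7.90 ± 0.52 in the embryos and 10.79 ± 0.69 in the oocytes (SD, n = 3 each). The log2 changes were -2.34 and -2.88. Htt, the huntingtin gene, had 9.98, 8.87 and 8.02 in the embryos and 12.48, 12.10 and 12.54 in the oocytes, a change of -3.42 (SE 0.65, adjusted p = 0.0369), with 0.01 on a dim second probe. The mean of the Htt probes did not pass (limma adjusted p = 0.103). Serf1 averaged 7.65 ± 0.13 in 6 h embryos and 11.26 ± 0.59 in oocytes (SD, n = 3 each), a change of -3.61.

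Of the 9 genes called higher, Gjd3, Bag6 and C530043A13Rik were bright in 6 h embryos. Gjd3, a connexin of gap junctions, had 14.93, 12.34 and 14.15 in the embryos and 8.52, 8.99 and 8.74 in the oocytes. Embryo b was the lowest embryo and still lay more than 3 units above every oocyte, and the log2 change was 5.06 (SE 0.93, adjusted p = 0.0314). Bag6, a chaperone of membrane proteins on their way to insertion or disposal, had 14.83, 14.62 and 14.57 in the embryos against 13.09, 13.75 and 13.29 in the oocytes. Its change was 1.30 (SE 0.21, adjusted p = 0.0154), and its 3 other bright probes had 0.15, 1.88 and 0.81. The mean of the Bag6 probes did not pass (limma adjusted p = 0.354). C530043A13Rik, a gene without an assigned function here, had 14.16, 13.47 and 13.51 in the embryos and 12.84, 12.54 and 12.28 in the oocytes, a change of 1.16 (SE 0.24, adjusted p = 0.0497).

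Zbtb7a, a zinc-finger repressor of transcription, had 9.47, 10.20 and 10.42 in 6 h embryos and 7.41, 6.55 and 7.11 in oocytes. The oocytes lay around the background, and the log2 change was 3.01 (SE 0.60, adjusted p = 0.0466), although its other bright probe had only 0.19. The other 5 genes called higher had means within 2 units of the background in 6 h embryos and near the background in oocytes. Rexo5, an RNA exonuclease, had 8.06, 7.95 and 7.93 in the embryos and 6.88, 6.68 and 6.37 in the oocytes, a change of 1.34 (SE 0.22, adjusted p = 0.0163). A dim second probe of Rexo5 had 0.54, and the mean of its probes did not pass (limma adjusted p = 0.466). Fcnb, a ficolin of innate immunity, had 8.45, 7.84 and 9.17 in the embryos against 6.83, 6.73 and 6.86 in the oocytes, a change of 1.68 (SE 0.34, adjusted p = 0.0466). Wdr49, a WD-repeat gene, the olfactory receptor gene Olfr323 and 1700016C15Rik had changes of 1.12, 1.19 and 1.27. Their embryo means were 7.94 ± 0.50, 7.69 ± 0.24 and 7.95 ± 0.65, against oocyte means of 6.82 ± 0.24, 6.50 ± 0.24 and 6.68 ± 0.06 in the same gene order (SD, n = 3 each).

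**Figure D2:**
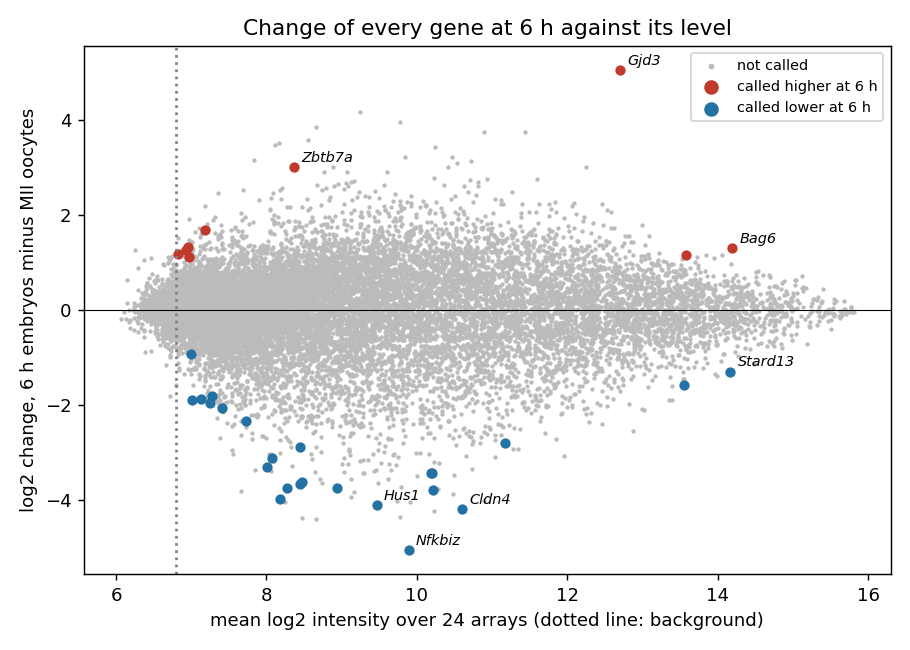
Log2 change of each of 19532 genes, 6 h embryos minus MII oocytes (vertical axis), against its mean log2 intensity over 24 arrays (horizontal axis), with called genes coloured and the background dotted. Most called genes lie at the outer edge of the cloud, with Gjd3 at 5.06 and Nfkbiz at -5.05, and many uncalled genes have changes as large as called ones.

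The change of the same genes at the other times is given against the same 3 oocytes, so these values share their reference with the 6 h values. From 2 to 12 h in steps of 2 h, Nfkbiz had log2 changes of -0.88, -3.52, -5.05, -4.45, -4.49 and -4.36. Uxs1 had 0.11, -0.80, -2.80, -1.19, -1.87 and -1.88 at these times. Its 6 h value was thus the lowest of its course, and 6 h did not pass the test against 4 h (change -1.99, adjusted p = 0.217) or against 8 h (change -1.60, adjusted p = 0.413). Ext2 had -3.66 at 2 h, beside -3.11 at 6 h and -3.38 at 12 h. Pusl1 likewise had -3.40 at 2 h, beside -3.30 at 6 h and -2.83 at 12 h.

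Among the higher genes, Gjd3 had log2 changes of 5.23, 3.60, 5.06, 4.44, 4.57 and 4.50 at the same 6 times. Zbtb7a had 1.77, 2.25, 3.01, 1.26, 1.05 and 0.23, with its highest value at 6 h. For Zbtb7a, 6 h did not pass the test against 4 h (change 0.75, adjusted p = 0.766) or against 8 h (change 1.75, adjusted p = 0.410). Rexo5 had 0.44, 0.16, 1.34, 0.17, 0.16 and 0.12. Wdr49 had values between -0.16 and 0.16 at every time but 6 h. For Rexo5 and Wdr49 all 3 embryos of 6 h lay above every embryo of 4 h and 8 h. Against 8 h neither passed the test, with changes of 1.17 (adjusted p = 0.0611) and 0.96 (adjusted p = 0.135), and against the mean of 4 h and 8 h both had an adjusted p of 0.0603.

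**Figure D3:**
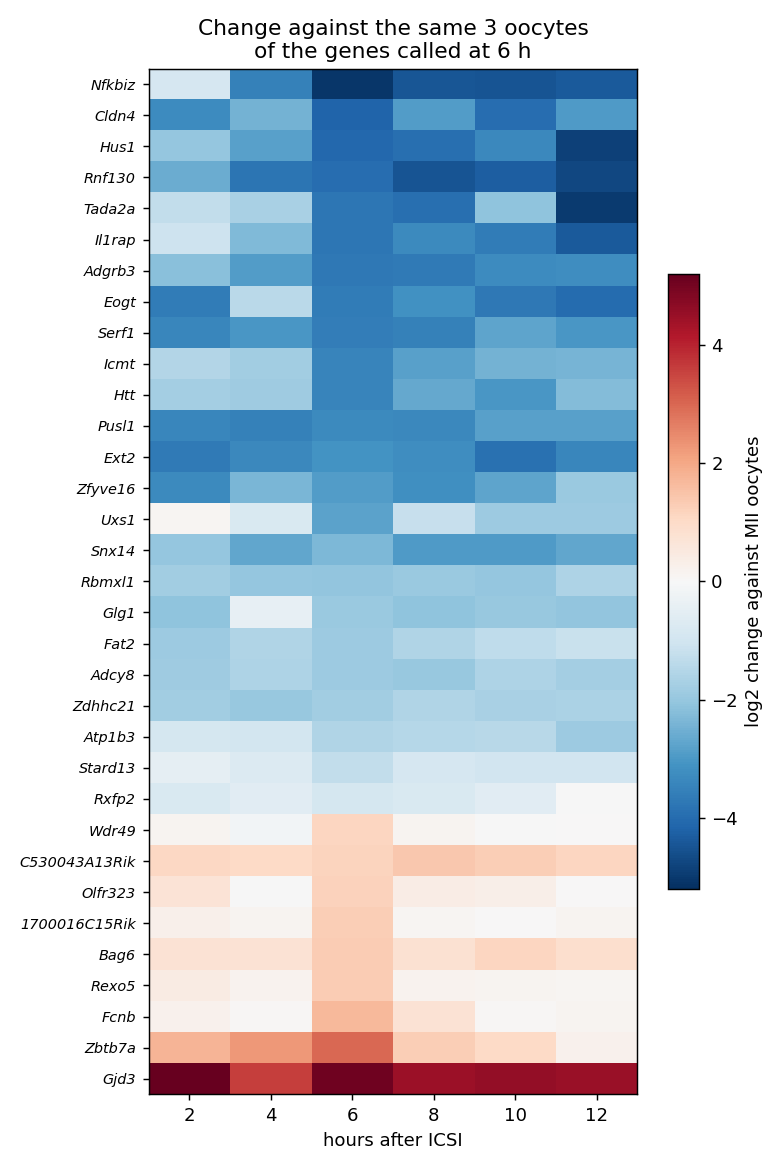
Log2 change against the same 3 MII oocytes (colour) at each hour after ICSI (columns) for the 33 genes called at 6 h (rows). Ext2 and Pusl1 are already dark at 2 h, and Nfkbiz and Uxs1 are pale at 2 h. Rexo5 and Wdr49 are only faintly coloured at 6 h, with changes of 1.34 and 1.12, and paler at the other times.

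Genes of the meiotic arrest, which sperm entry ends, were read from a list of 29 measured genes. None passed the test (0 called), while 4 were lower and 0 higher at an unadjusted p under 0.05 (4.01% and 4.77% of all genes). The list's median change was -0.25. Mos, the kinase that holds the arrest, had 13.07, 13.53 and 13.02 in 6 h embryos and 15.11, 15.38 and 15.12 in oocytes. All embryos lay below all oocytes, yet the change of -1.99 was not called (SE 0.83, from the spread within all 7 groups, adjusted p = 0.477). Ccnb2, a B-type cyclin, had 11.68, 10.36 and 11.38 in the embryos against 13.11, 13.43 and 13.37 in the oocytes, a change of -2.17 (SE 0.63, adjusted p = 0.231). Cdc20, the activator of the anaphase-promoting complex, had 10.33, 9.86 and 11.15 in the embryos against 13.10, 12.97 and 12.66 in the oocytes, a change of -2.46 (SE 0.78, adjusted p = 0.293). Fbxo43, the inhibitor of that complex known as Emi2, had 13.80 ± 0.25 in the embryos and 14.11 ± 0.11 in the oocytes (SD, n = 3 each), and Wee2, an oocyte kinase that restrains Cdk1, had 12.62 ± 0.19 in the embryos and 13.02 ± 0.21 in the oocytes. Cdk1 itself had 10.68 ± 0.30 in 6 h embryos and 9.39 ± 0.59 in oocytes (adjusted p = 0.711).

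The machinery of chromosome segregation also gave 0 calls. Of 18 spindle checkpoint genes 0 were higher and 2 lower at an unadjusted p under 0.05, the median change was -0.68, and 6 had all embryos below all oocytes while 1 had them above (against 9.38% and 10.5% of all genes). Bub1b, a checkpoint kinase-like protein, had 14.25, 13.01 and 14.44 in 6 h embryos against 15.38, 15.44 and 15.09 in oocytes (adjusted p = 0.614). Of 16 genes of the central spindle and cytokinesis 0 were higher and 3 lower at that p, with a median of -0.41. Over all genes 4.77% were higher and 4.01% lower at that unadjusted p. Kif23, a kinesin of the midbody, had 14.50, 13.13 and 14.27 in the embryos against 15.23, 15.38 and 15.25 in the oocytes (adjusted p = 0.201), and its other bright probe had a change of -0.65. The 16 genes of the anaphase-promoting complex had a median of 0.02, 1 being higher and 2 lower at that p. Cdc16, a subunit of that complex, had 11.49 ± 0.91 in 6 h embryos and 8.40 ± 1.40 in oocytes (SD, n = 3 each, adjusted p = 0.363).

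Maternal messages of the egg gave 0 calls. Of 46 measured, 3 were higher and 6 lower at an unadjusted p under 0.05 (4.77% and 4.01% of all genes), and the median change was -0.03. The list was bright, with a median level of 13.56 in 6 h embryos and 13.88 in oocytes. Among the 4883 brightest genes, with means of 10.12 to 15.81 over 24 arrays, 365 were higher and 284 lower at that p. The shares of all genes are therefore too low a baseline for this list. Gdf9 and Bmp15, growth factors secreted by oocytes, had 14.65 ± 0.39 and 13.25 ± 0.56 in 6 h embryos against 15.29 ± 0.07 and 14.13 ± 0.15 in oocytes (SD, n = 3 each), with adjusted p of 0.320 and 0.293. Nlrp4f, an oocyte NLRP gene, had 14.35, 14.86 and 14.67 in the embryos and 15.34, 15.34 and 15.29 in the oocytes, a change of -0.70 (SE 0.19, adjusted p = 0.177). Dppa3, which shields the maternal genome from demethylation, had 14.21 ± 0.35 in the embryos and 14.05 ± 0.28 in the oocytes. Zp2 and Zp3 of the egg coat had changes of 0.28 (SE 0.56) and -0.49 (SE 0.97). Plat, the tissue plasminogen activator, whose message is known in the mouse to be stored and recruited during maturation, had 12.30, 12.69 and 13.93 in the embryos against 15.59, 15.29 and 15.68 in the oocytes. The change of -2.55 was not called (SE 0.83, adjusted p = 0.312), and its other bright probe had -0.91.

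Genes that store and remove messages gave 0 calls. The 32 genes of storage and translational control had a median change of -0.11. At an unadjusted p under 0.05, 1 was higher and 4 lower (4.77% and 4.01% of all genes). The 57 genes of deadenylation and decay had a median of -0.03, with 1 higher and 2 lower. Btg4, the adaptor that brings the deadenylase to maternal messages, had 14.03 ± 0.43 in 6 h embryos and 14.16 ± 0.14 in oocytes, and Cnot7, a catalytic subunit of that deadenylase, 13.87 ± 0.29 in 6 h embryos and 14.02 ± 0.21 in oocytes (SD, n = 3 each). Btg3, a relative of Btg4, had the smallest p of its list, at 7.97, 10.24 and 8.14 in the embryos against 6.94, 6.57 and 7.74 in the oocytes, and did not pass (adjusted p = 0.403).

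**Figure D4:**
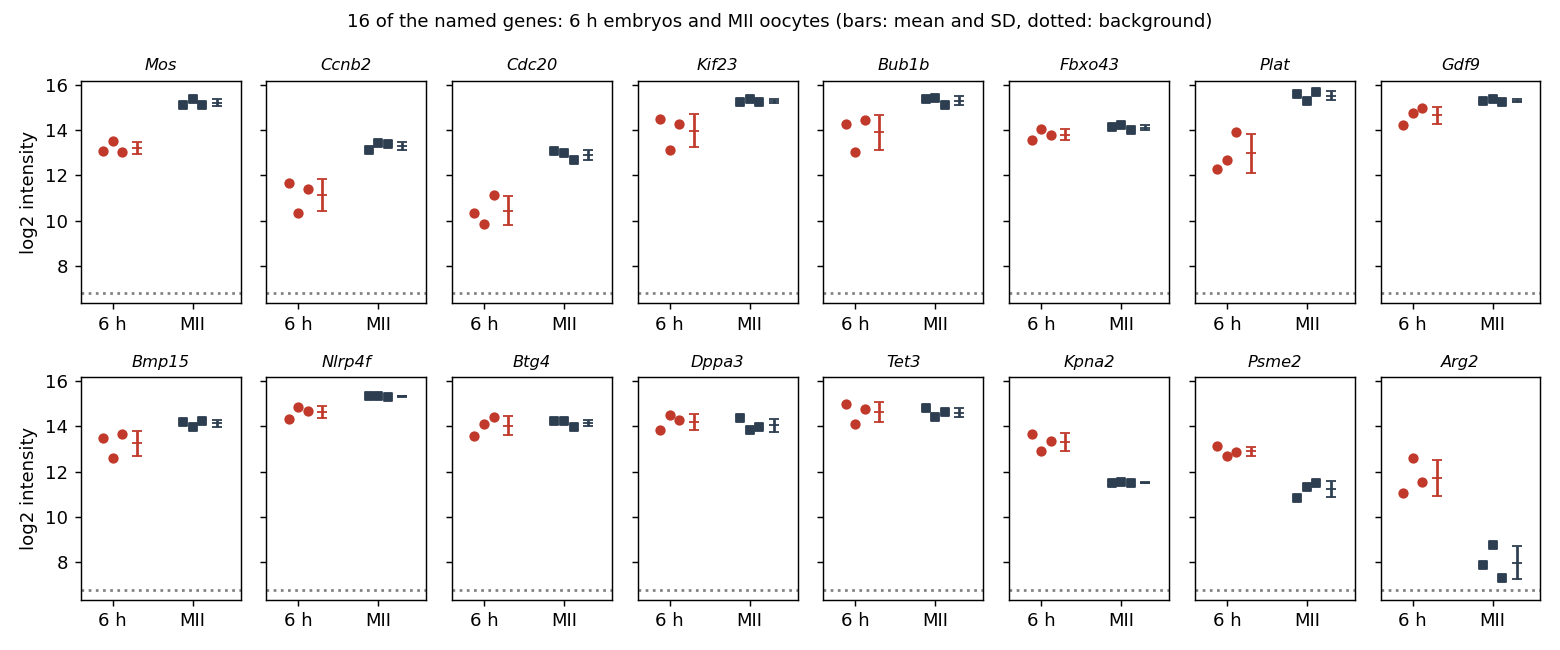
Log2 intensity of 16 named genes, most of them oocyte, meiotic or pronuclear genes, in each of the 3 embryos at 6 h (left, circles) and the 3 MII oocytes (right, squares), with mean and SD as bars and the background dotted. Mos, Ccnb2, Cdc20 and Plat lie lower in all 3 embryos and Kpna2, Psme2 and Arg2 higher, while none of the 16 passed the test.

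For the calcium and zinc signals of egg activation, 30 genes were measured and 0 were called, with a median change of -0.12. At an unadjusted p under 0.05, 2 were higher and 2 lower (4.77% and 4.01% of all genes). Slc39a9, a zinc transporter, had 7.78, 6.70 and 7.63 in 6 h embryos and 11.65, 10.76 and 11.79 in oocytes, and its change of -4.03 (SE 0.90) fell short of the call at an adjusted p of 0.0742. Slc39a6 and Slc39a10, zinc transporters of the oocyte surface, had -0.64 and -0.67. For pronucleus formation and nuclear transport, 57 genes had a median of -0.14 with 0 calls, 3 being higher and 5 lower at that p. Kpna2, an importin alpha that carries cargo into nuclei, had 13.69, 12.90 and 13.35 in the embryos against 11.48, 11.53 and 11.52 in the oocytes. All embryos were above all oocytes, its other bright probe had 2.16, and the change of 1.80 was not called (SE 0.48, adjusted p = 0.175). Tet3, the oxidase of 5-methylcytosine in the paternal pronucleus, had 14.64 ± 0.46 in 6 h embryos and 14.62 ± 0.21 in oocytes (SD, n = 3 each), among 26 genes of DNA methylation with 0 calls, 3 higher and 0 lower at that p.

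Replication licensing genes, which load the helicase before the first S phase, numbered 52 with 0 calls and a median change of -0.29. At an unadjusted p under 0.05, 2 were higher and 5 lower (4.77% and 4.01% of all genes). Mcm4, a helicase subunit, had 11.05, 10.94 and 12.17 in 6 h embryos against 13.21, 13.62 and 13.58 in oocytes (change -2.08, SE 0.63, adjusted p = 0.272). Cdt1, a loader, had 10.88 ± 0.80 in the embryos and 12.82 ± 0.28 in the oocytes (adjusted p = 0.587), and Orc1, an origin subunit, 9.51 ± 1.03 in the embryos and 11.96 ± 0.51 in the oocytes (adjusted p = 0.514; SD, n = 3 each). Ccne1, cyclin E, had a change of -0.07 (SE 0.63).

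Calls from the lists came from 5 of them. The list of 25 genes of acetyltransferase complexes held Tada2a, that of 34 genes of DNA damage held Hus1, and that of 27 genes of NF-kappaB and interleukin-1 signalling held Nfkbiz and Il1rap, all lower. Of 30 junction genes Gjd3 was called higher and Cldn4 lower, and of 37 chaperone genes Bag6 was called higher. The median changes of these 5 lists were 0.05, -0.16, 0.14, 0.05 and -0.23. These lists were drawn up with those genes known, and the counts are no separate evidence. Genes of the 2-cell stage, which follows genome activation, gave 0 calls of 21. At an unadjusted p under 0.05, 3 were higher and 1 lower (4.77% and 4.01% of all genes). Arg2, an arginase of that list, had 11.04, 12.61 and 11.55 in 6 h embryos against 7.87, 8.77 and 7.32 in oocytes, and its change of 3.75 (SE 0.88) missed the call at an adjusted p of 0.0951. Zfp352, a zinc-finger gene of that stage, had 7.46 ± 0.53 in the embryos and 7.23 ± 0.24 in the oocytes, both near background.

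Genes that most cells use also gave 0 calls. The median change was -0.18 over 71 cytosolic ribosomal protein genes, -0.14 over 50 genes of RNA polymerase II and its general factors, -0.10 over 45 proteasome genes, -0.19 over 74 genes of oxidative phosphorylation and 0.03 over 39 immediate early genes. At an unadjusted p under 0.05 these 5 lists had 2, 1, 3, 3 and 0 genes higher and 3, 6, 3, 5 and 3 lower, in that order. Over all genes 4.77% were higher and 4.01% lower at that p. Single genes in them had groups that did not overlap without passing the test. Psme2, a proteasome activator subunit, had 13.12, 12.71 and 12.87 in 6 h embryos against 10.85, 11.34 and 11.52 in oocytes (adjusted p = 0.160). Rpl13a, a protein of the large ribosomal subunit, had 12.91, 14.26 and 12.19 in the embryos against 11.55, 11.56 and 11.06 in the oocytes (adjusted p = 0.233). Gtf2f2, a subunit of the general factor TFIIF, had 12.45, 13.53 and 12.99 in the embryos against 10.68, 10.82 and 10.71 in the oocytes (adjusted p = 0.277), while its other bright probe had a change of -0.75.

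**Figure D5:**
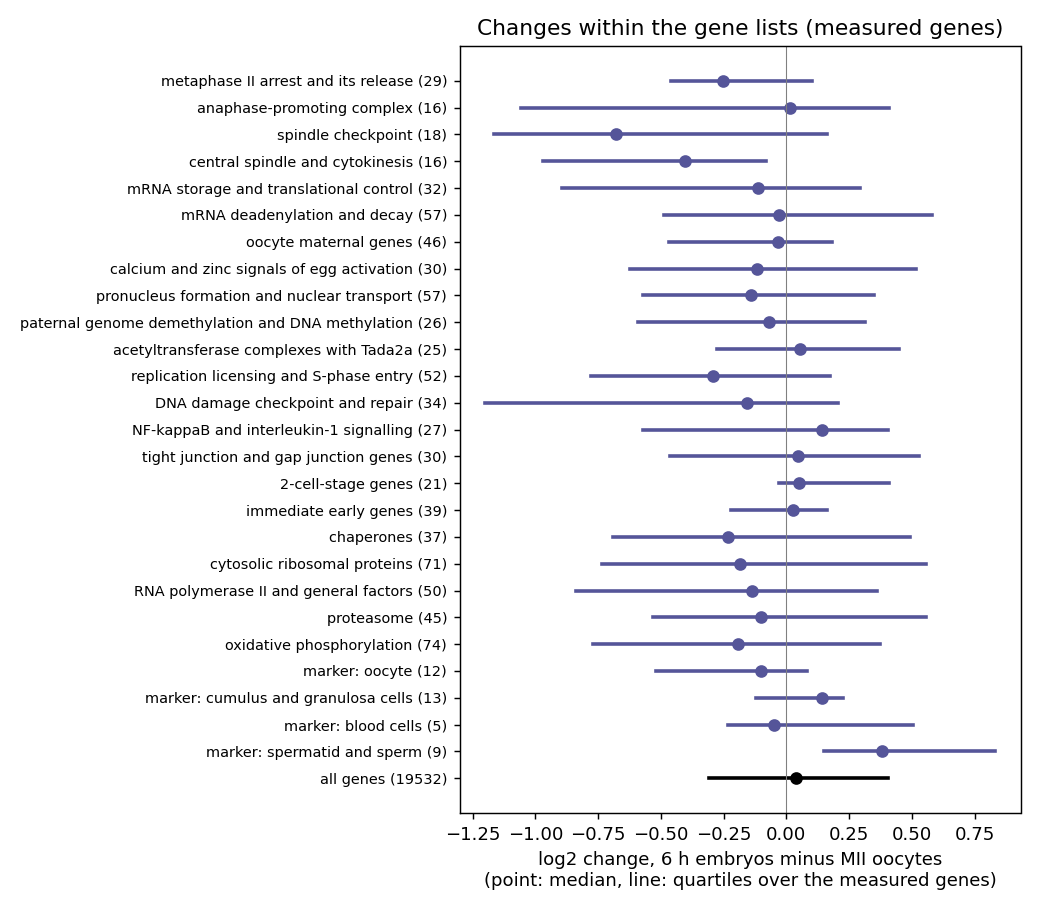
Median (point) and quartiles (line) of the log2 change, 6 h embryos minus MII oocytes, over the measured genes of each list, with the number of genes in brackets and all 19532 genes at the bottom. The list medians lie between -0.68 (spindle checkpoint) and 0.38 (spermatid and sperm markers), against 0.04 for all genes.

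Markers of other cells were read beside these results. Of 9 spermatid and sperm markers, 5 were over 1 unit above background in 6 h embryos and 4 in oocytes, and Tnp1, Odf1, Oaz3 and Plcz1 were near background in both. Their summed intensity was 13678 to 24644 in 6 h embryos and 6143 to 10643 in oocytes. Gapdhs, the glycolytic enzyme of sperm, had 13.91, 13.02 and 12.80 in the embryos against 12.11, 10.61 and 12.70 in the oocytes, and Prm1, a protamine, 12.35, 12.14 and 12.14 in the embryos against 11.42, 11.47 and 11.24 in the oocytes. Neither was called, with adjusted p of 0.272 and 0.402. Of 13 cumulus and granulosa markers, 3 were above background in each group, with a summed intensity of 8698 to 13338 in 6 h embryos and 7785 to 8149 in oocytes. Foxl2, Fshr, Amhr2, Inha and Star were near background in both groups, and Amh made up most of the sum, at 13.37, 13.37 and 12.63 in the embryos against 12.40, 12.51 and 12.49 in the oocytes. The 5 blood cell markers summed to 762 to 2419 in 6 h embryos and 827 to 2659 in oocytes. The part of these signals in the calls was not tested.

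Whether the 6 h embryos stood apart from the embryos before and after them was tested by setting the 6 h group against the 4 h and 8 h groups, with the spread still taken from all 24 arrays. A fit of only the groups compared called 0 genes in each of these comparisons, with 1347 against 4 h and 1095 against 8 h at an unadjusted p under 0.05. Against 4 embryos at 4 h, 5 genes were called (0.0256%), 3 higher (0.0154%) and 2 lower (0.0102%), with 1692 genes at an unadjusted p under 0.05 (8.66%). Fjx1, related to a Golgi kinase of the fly, had 7.12, 6.54 and 6.88 in 6 h embryos, at background, against 9.84, 10.29, 12.45 and 9.01 in 4 h embryos. The oocytes had 6.83, 6.87 and 6.78, so that it was the 4 h embryos that stood out, and the log2 change from 4 h was -3.55 (SE 0.51, adjusted p = 0.0122). Crybg2, a crystallin-domain gene, had 6.57, 6.59 and 6.75 in 6 h embryos against 8.45, 7.96, 7.18 and 8.02 in 4 h embryos, a change of -1.27 (SE 0.20, adjusted p = 0.0192). Rexo5 had 8.06, 7.95 and 7.93 in 6 h embryos against 6.72, 6.65, 6.84 and 7.03 in 4 h embryos, a change of 1.17 (SE 0.21, adjusted p = 0.0489). Wdr49 had 7.39, 8.37 and 8.05 in 6 h embryos against 6.52, 6.72, 6.66 and 6.74 in 4 h embryos, a change of 1.28 (SE 0.21, adjusted p = 0.0255). Vmn1r234, a vomeronasal receptor gene, had a change of 0.89 (SE 0.16, adjusted p = 0.0489) at 7.49 ± 0.40 in 6 h embryos, near background. Without embryo d of 6 h the count against 4 h was 29, without embryo a of 6 h it was 2, and without 4 h embryos a or d it was 3 or 13.

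Against 3 embryos at 8 h, 1 gene was called (0.00512%), with 1467 at an unadjusted p under 0.05 (7.51%). Tmigd1, an immunoglobulin-domain membrane protein, had 6.49, 6.59 and 6.45 in 6 h embryos, below the background level, against 8.04, 9.26 and 7.70 in 8 h embryos. The log2 change was -1.82 (SE 0.28, adjusted p = 0.0312), and its 4 h embryos, at 6.42, 6.68, 6.76 and 6.40, were like those of 6 h. Against the mean of the 4 h and 8 h groups 0 genes were called (0%) in the limma fit, with 1436 at an unadjusted p under 0.05 (7.35%). Without 8 h embryo a, c or d, the count against 8 h was 14, 50 or 38, of which 13, 47 and 38 were lower at 6 h, and without embryos a or b of 6 h it was 7 or 2. The count against the mean was 2, 4 and 19 without embryos a, b and d of 6 h, and 1, 2 and 1 without 8 h embryos a, c and d.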

How the data were processed

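Single-cell mRNA was measured on microarrays, 24 in 7 groups. Per the labels' protocols, mRNA was captured on oligo-dT beads, copied, given a poly-G tail and PCR-amplified, with sample cDNA labelled by digoxigenin and a reference by biotin. The label field names biotin only, and the sources used here do not say which label the values represent. The deposited values are scores (0 to 4.57, column medians 1.16 to 1.18), and limma, with no version, is named in the submitters' processing notes. The sources used here do not name the scanner or the background correction.

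The planned test asked for log2 intensity. Tied probes, which quantile normalization places midway between levels, carry the curvature of the scale. A double natural log of intensity, with a fitted divisor of 0.225, was fitted to 907 near-midpoint triples of scores. The 665 within 0.02 of that curve were taken as midpoints, and 689 lay within 0.2. The fitted curvature at the midpoints was 1.11 to 2.68. Their largest residual, 0.0195, is bounded by that limit and is no check of the form. Other forms were not tested. The scores were turned back by this form, to intensities of 51.6 to 59443. The midpoints leave a shift and a factor of intensity unset, so the log2 values rest on that form. The steps were checked on probes simulated with the same double log, which cannot test whether the deposited scores have that form. Saturated spots could not be told apart.

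The platform annotation gave 1 symbol for 32664 of 41174 probes, several for 45 and none for 8465; 32524 were matched by Entrez identifier to NCBI RefSeq (GRCm38.p6), with 0 symbols changed. The probe with the highest mean over 24 arrays stood for each of 19532 genes, 8511 of which had more than 1. No 2 arrays were copies (smallest mean absolute difference 0.463). limma 3.58.1 in R 4.3.3 (lmFit, eBayes with trend) fitted 7 group means without covariates, two-sided, with Benjamini-Hochberg adjustment over all genes. On simulated data this fit called 11.9%, 38.8% and 81.8% of changes of 1, 2 and 4 log2 units at 6 h. These changes were put into 67, 67 and 66 genes, with normal noise of 1 spread per gene in all 7 groups. The fit made 8 false calls among the unchanged genes. A bright probe lies over 1 log2 unit above background. The 4 comparisons set 6 h against MII oocytes, 4 h, 8 h and the mean of 4 h and 8 h. Genes were named by rule: all called genes, in each of 26 lists (928 entries) the called members, the one with the smallest p and the one brightest in oocytes, and a panel; Prm1 was added after its values were seen. Members and lists were chosen with earlier results of these data known. Alternatives were the fit of only the compared groups, no trend, array weights, a replicate block, the upper 60% of genes, other probes, the deposited scores, each replicate left out and, chosen after seeing the data, the coarse arrays left out (a mean gap between neighbouring intensities of 200 to 1000 over 1.5 times the median).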

Additional observations from a re-analysis of the deposited data

Results flagged for a closer look

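The genes below differed between the 6 h embryos and a neighbouring time when each is set against the same oocytes, by the test of the difference itself in the limma fit. From 4 h, the log2 differences (6 h minus 4 h) were -3.55 for Fjx1, -1.27 for Crybg2, 1.28 for Wdr49, 1.17 for Rexo5 and 0.89 for Vmn1r234. From 8 h, Tmigd1 differed by -1.82 (6 h minus 8 h). The call of Fjx1 was lost under 1 of 15 alternatives, that of Crybg2 under 3 of 14 and that of Tmigd1 under 4 of 13. Those of Wdr49, Vmn1r234 and Rexo5 were lost under 6 of 14, 11 of 14 and 13 of 15. The adjusted p of Fjx1 ranged from 0.0003 to 0.714 over its alternatives and that of Rexo5 from 0.032 to 0.78. All 6 genes had means within 2 log2 units of the background in 6 h embryos. Groups of 3 cells are too small for the check of single far samples.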

How the results depend on the processing

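Counts are higher plus lower calls. For 6 h against MII oocytes, 33 genes became 0 with only the compared groups in the fit, 205 with array weights (96 higher, 109 lower, all 33 among them), 7 with the replicate block, 5 on second probes (0 higher), 20 on the deposited scores (all among the 33) and 3 without the coarse arrays (2 higher, 1 lower, 1 of the 33). Without 1 replicate they ranged from 1 to 22, with most calls higher without embryos b (9 and 7) or d (12 and 10). Without the trend there were 42 (17 higher, 25 lower), and on the upper 60% of genes 29 (5 and 24). What the replicate letters stand for is not labelled. Same-letter deviations of 6 h embryos and oocytes correlated at -0.04 (a) and 0.0006 (d), within the -0.045 to 0.065 of different letters. So few cells cannot decide whether the letters share an animal or a session. For 6 h against 4 h, 5 became 0 (only the groups), 3 (replicate block), 1 (upper 60%), 1 (second probes), 3 (scores) and 10 (coarse arrays out), and 2 to 29 without 1 replicate. For 6 h against 8 h, 1 became 0 (only the groups), 6 (weights), 6 (replicate block), 0 (upper 60%), 5 (mean of probes), 4 (second probes), 2 (scores) and 133 (coarse arrays out, 130 lower, which leaves 1 array at 8 h that is assumed to vary like other groups), and 1 to 50 without 1 replicate. For 6 h against the mean of both, 0 became 1 (no trend), 5 (weights), 4 (mean of probes), 3 (second probes), 33 (coarse arrays out), and 0 to 19 without 1 replicate. The causes were not tested. On second probes the changes of Nfkbiz (0.0801), Il1rap (0.081), Htt (0.0062) and Stard13 (0.32) turned round, the first 3 on dim probes. Over all named genes and settings 1480 values kept their side of the threshold, 63 of them of uncalled genes with the sign turned. Of the rest, 326 lost the call, 4 more lost it with the sign turned and 10 gained it. Only 33 of the 121 named genes were called at 6 h against MII oocytes, so most of the values kept were of genes that stayed uncalled. Each of these 33 calls was lost under 3 to 12 alternatives, with a median of 10. A change near background is only a bound.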
